A study of Mus musculus with 8 samples.

Results

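Dual specificity MAP kinase phosphatases are the enzymes that switch MAP kinases off. A list of 10 genes was followed through an array comparison of the nucleus accumbens of cocaine-treated and saline-treated mice. The genes were matched by symbol to the array annotation and were listed with earlier results of these data known. Of these, 9 genes (Dusp1, Dusp2, Dusp4, Dusp6, Dusp7, Dusp8, Dusp10, Dusp14 and Dusp16) were annotated to a total of 13 probes, among 19087 named genes. For Dusp5 the annotation used here named no probe, so its expression was not analysed here.

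A MAP kinase (ERK, JNK or p38) is active while a threonine and a tyrosine of its activation loop both carry phosphate, and a dual specificity phosphatase removes both. Several of these genes are themselves transcribed in response to the kinases they oppose, which makes them negative feedback genes and, in neurons, activity-induced genes. In the striatum, to which the nucleus accumbens belongs, cocaine raises extracellular dopamine and is known to activate ERK in medium spiny neurons, the projection neurons of that region.

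The promoter windows of 3 members are shown because they differ in the cAMP response element (CRE), the site of the activity-dependent factor CREB. Dusp1 and Dusp8 held the full element. Dusp6 is shown as an example without it, and Dusp7, Dusp10 and Dusp14 held neither the full nor the short form either. Each window runs from 250 bases before to 50 bases after the annotated start of the gene, 5′ to 3′ on the gene's strand, from RefSeq on GRCm38.p6. Capitals mark the letters TGACGTCA and the short element TGACG on either strand. Dusp1 lies at chr17:26508423-26508722 on the minus strand, Dusp6 at chr10:99262981-99263280 on the plus strand and Dusp8 at chr7:142095235-142095534 on the minus strand.
Dusp1: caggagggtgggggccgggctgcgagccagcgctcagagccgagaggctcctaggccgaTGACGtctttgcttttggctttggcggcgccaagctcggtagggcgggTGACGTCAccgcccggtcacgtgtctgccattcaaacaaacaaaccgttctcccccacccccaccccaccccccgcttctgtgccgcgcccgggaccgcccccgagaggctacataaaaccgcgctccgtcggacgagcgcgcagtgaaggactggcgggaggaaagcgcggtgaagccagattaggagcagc
Dusp6: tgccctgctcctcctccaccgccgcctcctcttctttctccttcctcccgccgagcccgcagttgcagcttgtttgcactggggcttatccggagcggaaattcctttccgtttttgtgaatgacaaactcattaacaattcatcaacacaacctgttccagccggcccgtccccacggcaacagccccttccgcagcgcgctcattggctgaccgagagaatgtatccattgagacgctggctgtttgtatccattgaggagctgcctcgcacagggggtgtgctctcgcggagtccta
Dusp8: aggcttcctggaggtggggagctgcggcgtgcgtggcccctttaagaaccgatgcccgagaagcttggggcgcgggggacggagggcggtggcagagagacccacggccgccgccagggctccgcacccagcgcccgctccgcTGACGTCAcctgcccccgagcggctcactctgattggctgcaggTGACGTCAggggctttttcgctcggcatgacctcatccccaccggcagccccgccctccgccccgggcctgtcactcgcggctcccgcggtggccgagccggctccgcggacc

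The full element TGACGTCA, which contains the short element on both strands, was found in 2 of the 9 members with a window (Dusp5 has one and Dusp4 is not in the table used), once in Dusp1 and at 2 places in Dusp8, and in 1.79% of all 32851 promoter windows of 300 bases. The short element TGACG was found in 5 of 9 (Dusp1, Dusp2, Dusp5, Dusp8 and Dusp16) and in 20.8% of all windows. A match describes the letters only.

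The animals were male mice trained briefly in conditioned place preference, where a place is paired with an injection. They received cocaine at 15 mg per kg, or saline, on days 2, 3 and 4, with strain and age not stated in the labels. Accumbens RNA of a cocaine mouse and a saline mouse was amplified from 75 ng, labelled with Cy5 and Cy3 and hybridised to the same whole-genome 2-colour array. In 2 hybridisations cocaine carried Cy5 (cocaine in Cy5, replicates 1 and 2) and in 2 saline carried Cy5 (saline in Cy5, replicates 1 and 2). Each was scanned on an Axon GenePix and an Agilent scanner, and both scans were averaged, so that n = 4 pairs of mice. The deposited values are log2 ratios without intensities, so signal over background is unknown and no level of a gene can be given. The labels do not state their direction. Cocaine over saline is the likely reading, and the opposite one would turn every sign below. Tissue identity could likewise be checked only through ratios.

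The ratios carried a large dye effect. After each scan was centred on its median, the ratios of hybridisations of opposite dye orientation correlated across array rows at r between -0.896 and -0.754, and those of the same orientation at 0.833 and 0.871. A fit with limma therefore held a cocaine coefficient (the mean over both orientations) and a dye coefficient. The fit covered 31334 entries, called genes here. These were the 19087 named genes and, each on its own, the probes without a single symbol. A dye effect passed the adjusted p of 0.05 for 77.9% of the 31334, 34.5% of them towards Cy5. The median dye coefficient was -0.19 over all 31334 and 0.14 over the named genes. As a second scale, each scan was corrected by loess along the mean dye profile of the Agilent scans. On that scale, called dye-profile values, the trend along the profile is removed and the fit still held a dye coefficient. The hybridisations share the profile, so agreement between them is not independent.

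The phosphatases carried this dye effect unequally. Dye coefficients (log2 of Cy5 over Cy3) were 1.50 ± 0.18 for Dusp7, 1.49 ± 0.19 for Dusp6, 1.46 ± 0.18 for Dusp8, 1.43 ± 0.18 for Dusp14 and 1.29 ± 0.18 for Dusp1 (limma standard errors, n = 4). These 5 lay between the 92.3 and 98.0 percentiles of all genes and above the median of 1.26 over 71 ribosomal protein genes. The coefficients of Dusp10 at 0.43 ± 0.17, Dusp2 at 0.42 ± 0.17, Dusp4 at 0.36 ± 0.17 and Dusp16 at -0.24 ± 0.17 lay nearer the middle, and the median over 905 olfactory receptor genes was -0.80. The dye effect passed for 7 of 9 members, all towards Cy5, and the exceptions were Dusp4 and Dusp16. Dusp2 passed through Agilent values deposited as exactly 0, and 6 of 9 passed with such values set to missing, an alternative added after seeing the data. Centred values did not overlap between the orientations for 9 of 9 members, as for 91.5% of all genes.

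**Figure D1:**
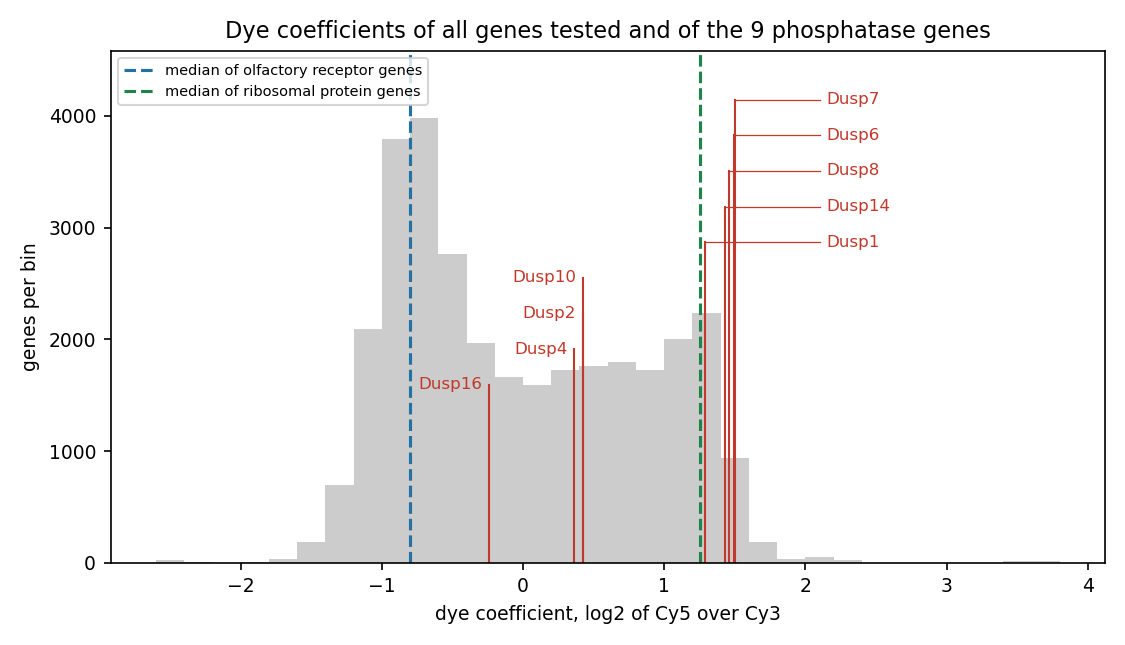
Histogram of the dye coefficient (log2 of Cy5 over Cy3, x axis) over 31334 genes (y axis, genes per bin), with red lines at the 9 phosphatase genes (line heights only separate the names) and dashed lines at the medians of olfactory receptor and ribosomal protein genes. Dusp1, Dusp6, Dusp7, Dusp8 and Dusp14 sit in the right tail, from 1.29 to 1.50, and the other 4 genes in the middle.

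No phosphatase gene passed the test for cocaine. In the limma fit across all 31334 genes 0 of 9 members passed an adjusted p of 0.05 (0 also at an unadjusted p of 0.05). Of all genes 0.0255% passed, 0.0223% lower and 0.00319% higher, and 6.04% had an unadjusted p below 0.05, 3.24% on the lower side. Coefficients of the centred values (log2 of cocaine over saline) ran from -0.27 for Dusp4 to 0.13 for Dusp7 with a median of -0.073, and 7 of 9 lay below 0 beside 43.4% of all genes, whose median was 0.032. Without saline in Cy5 replicate 2 that count was 4 of 9 and the median of the members 0.081, and without cocaine in Cy5 replicate 1 the count was 5 of 9. With values of exactly 0 missing, and also in Agilent scans only, it was 6 of 9, as Dusp2 then lay above 0. In dye-profile values 9 of 9 lay below 0, where 50.2% of all genes did, with a median of -0.18 for the members and -0.00097 for all genes. There 0 of 9 passed, as did 0% of 31300 genes, while 3 members (Dusp4, Dusp6 and Dusp14) had an unadjusted p below 0.05 on the lower side, beside 3.81% of genes (7.28% in either direction). Centred values lay below 0 in 4 of 4 hybridisations for 0 members and 0.766% of genes. Dye-profile values lay below 0 in 4 of 4 hybridisations for 6 members, Dusp1, Dusp4, Dusp6, Dusp8, Dusp14 and Dusp16, beside 9.5% of all genes, and 19.1% of genes had the same sign in all 4. For Dusp4 and Dusp16 this held for the mean over probes and not for each probe alone. The 4 medians over the members were -0.16 and -0.25 with cocaine in Cy5 and -0.24 and -0.18 with saline in Cy5. The members were listed with earlier results of these data known, so the counts are a description and no test was made over them.

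**Figure D2:**
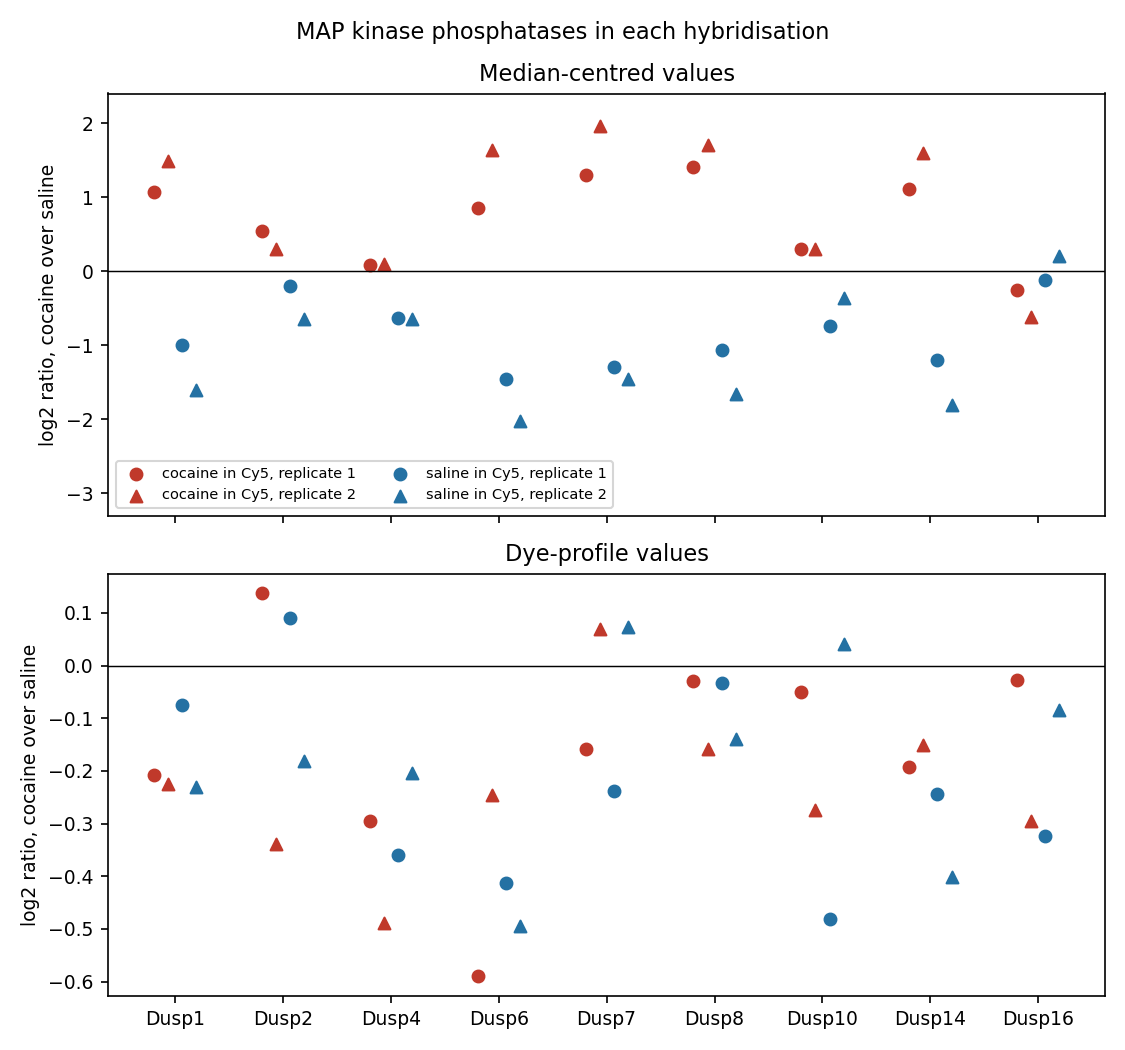
Log2 ratio of cocaine over saline (y axis) of each phosphatase gene (x axis) in the 4 hybridisations, centred on the median (top) and as dye-profile values (bottom). In the top panel red points (cocaine in Cy5) and blue points (saline in Cy5) are apart for every gene, and in the bottom panel the 4 points of Dusp6 lie between -0.59 and -0.25.

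Genes with a large dye coefficient had centred cocaine coefficients that were mostly above 0. Over the 5511 genes with a dye coefficient above 1 the median centred cocaine coefficient was 0.17, 13.7% of them lay below 0, and in dye-profile values their median was -0.0021 and 50.7% lay below 0. The 5 phosphatases in that class, at -0.25 (Dusp6), -0.073 (Dusp14), -0.015 (Dusp1), 0.098 (Dusp8) and 0.13 (Dusp7), were all below that median of 0.17. In dye-profile values 4 of these 5 were below 0 in 4 of 4 hybridisations, beside 15% of the class.

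Among the nuclear, inducible phosphatases, Dusp1, an immediate early gene whose product acts on p38, JNK and ERK, had centred log2 ratios of 1.06 and 1.49 with cocaine in Cy5 and -1.003 and -1.61 with saline in Cy5. The orientations stood apart and nearly mirrored each other, and the cocaine coefficient was -0.015 ± 0.18 (limma adjusted p = 0.995, 95% interval -0.39 to 0.36). Its dye-profile values were -0.21, -0.23, -0.076 and -0.23 in the same order, all below 0 with saline in Cy5 replicate 1 nearest to it, with a coefficient of -0.18 ± 0.10 (adjusted p = 0.683). The 95% interval on that scale was -0.42 to 0.054.

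Dusp2, a nuclear phosphatase first known from lymphocytes, had centred ratios of 0.54 and 0.30 with cocaine in Cy5 and -0.20 and -0.65 with saline in Cy5. Its cocaine coefficient was -0.00063 ± 0.17, with a 95% interval of -0.37 to 0.37. In 3 of its 4 Agilent scans, cocaine in Cy5 replicate 2 and both saline in Cy5 replicates, the deposited log2 ratio was exactly 0, so that the centred value there is the scan median with its sign turned. Between 352 and 637 rows per scan held such a value, and no other member did. With these values missing, the cocaine coefficient of Dusp2 was 0.067 ± 0.19 and its dye coefficient was 0.20 ± 0.19, which did not pass. Dye-profile values were 0.14 and 0.090 in the replicates numbered 1 and -0.34 and -0.18 in those numbered 2, so the hybridisations went both ways and the coefficient was -0.073 ± 0.12.

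Dusp4, a nuclear phosphatase of ERK and JNK that ERK signalling induces, had the smallest p of the members after centring. Its centred ratios were 0.090 and 0.10 with cocaine in Cy5 and -0.63 and -0.64 with saline in Cy5, tight within each orientation. The coefficient was -0.27 ± 0.17 (limma adjusted p = 0.866, 95% interval -0.63 to 0.087). In the centred fit limma gave 15.9 degrees of freedom to a variance shared across genes, against 2 residual ones. Standard errors after centring therefore say little about the spread of a single gene such as Dusp4. Dye-profile values of -0.30, -0.49, -0.36 and -0.20 were all below 0, with a coefficient of -0.34 ± 0.10 (limma adjusted p = 0.669, 95% interval -0.59 to -0.087).

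The Dusp4 value is a mean of 2 probes that disagreed. The probe designed on a cDNA clone (probe 7272) stood at dye-profile values of -0.60 and -0.44 with cocaine in Cy5 and -0.83 and -0.46 with saline in Cy5, the lowest coefficient of any phosphatase probe at -0.58 ± 0.12. In a limma fit across all probes its adjusted p was 0.656, and after centring its coefficient was -0.46 ± 0.20 (limma adjusted p = 0.697). The probe on the RefSeq transcript (23510) stood at 0.014 and -0.54 with cocaine in Cy5 and 0.11 and 0.053 with saline in Cy5, so 3 of its 4 values were above 0, and its coefficient was -0.090 ± 0.13. Their dye coefficients were 0.94 ± 0.20 for the first and -0.21 ± 0.20 for the second. In the centred fit across probes every phosphatase probe had the same standard error of 0.20. It therefore does not describe how either probe varied over the hybridisations.

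The cytoplasmic, ERK-selective phosphatases are Dusp6 and Dusp7. Dusp6, a feedback inhibitor that ERK signalling induces, had centred ratios of 0.86 and 1.64 with cocaine in Cy5 and -1.46 and -2.02 with saline in Cy5. The orientations stood apart, and the saline in Cy5 values were on average farther from 0, with a coefficient of -0.25 ± 0.19 (limma adjusted p = 0.884, 95% interval -0.64 to 0.15). Dye-profile values were -0.59 and -0.25 with cocaine in Cy5 and -0.41 and -0.49 with saline in Cy5. All 4 were below 0, and each of the 8 scans was too, from -0.61 to -0.23. The dye-profile coefficient of -0.44 ± 0.11 was the lowest of any member (95% interval -0.70 to -0.17), and its limma adjusted p over all 31300 genes was 0.669, which did not pass.

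Dusp7, the other ERK-selective member, had centred ratios of 1.30 and 1.96 with cocaine in Cy5 and -1.29 and -1.46 with saline in Cy5, and a coefficient of 0.13 ± 0.18, the highest of the members. Dye-profile values were -0.16 and -0.24 in the replicates numbered 1 and 0.069 and 0.074 in those numbered 2. The sign thus differed between pairs of mice and the coefficient was -0.064 ± 0.11 (95% interval -0.34 to 0.21). The intervals of Dusp6 and Dusp7 overlapped on both scales, and their difference was not tested.

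Among the phosphatases selective for JNK and p38, Dusp8, which is prominent in brain, had centred ratios of 1.41 and 1.71 with cocaine in Cy5 and -1.06 and -1.65 with saline in Cy5, with a coefficient of 0.098 ± 0.18. Its dye-profile values were near 0, at -0.028 and -0.16 with cocaine in Cy5 and -0.033 and -0.14 with saline in Cy5, all slightly below 0, and its coefficient was -0.090 ± 0.096. Both of its probes gave nearly the same values, with centred coefficients of 0.092 and 0.10.

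Dusp10, a phosphatase of JNK and p38, had centred ratios of 0.30 and 0.29 with cocaine in Cy5 and -0.73 and -0.37 with saline in Cy5. The coefficient was -0.13 ± 0.17 after centring and -0.19 ± 0.13 in dye-profile values, whose 4 values of -0.050, -0.27, -0.48 and 0.040 spread over both signs.

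Dusp16, a phosphatase of JNK, had a dye coefficient that did not pass, and its probes differed in the sign of it (-0.59 for probe 1038 and 0.12 for probe 38769). Its centred ratios were -0.26 and -0.62 with cocaine in Cy5 and -0.12 and 0.20 with saline in Cy5, with a coefficient of -0.20 ± 0.17. Dye-profile values of -0.027, -0.29, -0.32 and -0.084 gave -0.18 ± 0.11 (limma adjusted p = 0.708). Its probes, both on the same transcript, differed in sign in saline in Cy5 replicate 2, where dye-profile values were 0.46 for probe 1038 and -0.63 for probe 38769. They also did in cocaine in Cy5 replicate 1, at -0.22 for probe 1038 and 0.17 for probe 38769. The mean of the gene hides opposite values in both, and neither probe alone was below 0 in every hybridisation.

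Dusp14, a small atypical phosphatase that lacks the kinase-binding domain of the others, had centred ratios of 1.11 and 1.60 with cocaine in Cy5 and -1.19 and -1.81 with saline in Cy5, and a coefficient of -0.073 ± 0.18. Dye-profile values were -0.19 and -0.15 with cocaine in Cy5 and -0.24 and -0.40 with saline in Cy5, all below 0, with a coefficient of -0.25 ± 0.10 (limma adjusted p = 0.669). Its probes were alike, at -0.24 ± 0.11 and -0.26 ± 0.10.

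**Figure D3:**
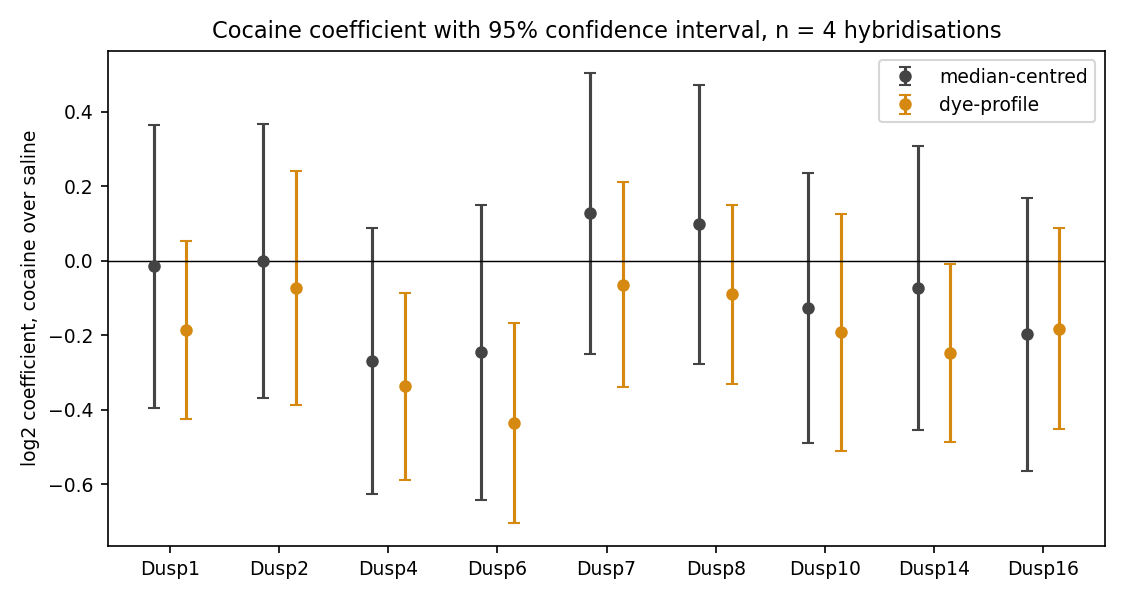
Cocaine coefficient (log2 of cocaine over saline, y axis) of each gene (x axis) with its 95% confidence interval from limma, n = 4 hybridisations, after centring (grey) and in dye-profile values (orange). Every grey interval crosses 0, and the orange intervals of Dusp4, Dusp6 and Dusp14 lie below it before adjustment for the number of genes.

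In order of the dye-profile coefficient the members ran Dusp6, Dusp4, Dusp14, Dusp10, Dusp1, Dusp16, Dusp8, Dusp2 and Dusp7, from -0.44 to -0.064. Neighbours in that order, in dye-profile values, differed by less than the standard error of either. After centring the order began with Dusp4 and Dusp6 and ended with Dusp8 and Dusp7, also with neighbours within their errors.

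The genes around the phosphatases were taken from pathway lists chosen with earlier results of these data known, and 0 members of any of these 6 lists passed the limma test in either direction on either scale. Of 14 other dual specificity phosphatases, 5 were below 0 after centring and 7 in dye-profile values (median 0.011). The largest differences by p were Dusp12 at 0.32 ± 0.17 and Dusp26, a brain phosphatase, at 0.28 ± 0.18, both centred. In dye-profile values they stood at 0.22 and 0.055. Dusp9, an ERK phosphatase of the same family as Dusp6 and Dusp7, stood at 0.043 ± 0.17 after centring and at 0.029 in dye-profile values.

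Of the kinase cascades, 16 of 21 listed Ras activators and ERK cascade genes were measured, with medians of 0.11 after centring and -0.00033 in dye-profile values. Map2k1, the kinase that activates ERK, stood at 0.51 ± 0.19 (limma adjusted p = 0.756) and Mapk7, which encodes ERK5, at 0.28 ± 0.18 after centring. In dye-profile values they stood at 0.31 and 0.12. Of the JNK and p38 cascades 19 of 22 genes were measured (medians 0.096 and 0.012). Mapk8ip1, a JNK scaffold, stood at 0.49 ± 0.18 and Mapk11, p38 beta, at -0.52 ± 0.21 after centring. In dye-profile values these were 0.31 and -0.61. The MAP kinase targets had medians of -0.033 and -0.079 over 16 genes. The kinase gene Rps6ka5 stood at 0.30 ± 0.17 and the Ets factor Elk3 at -0.27 ± 0.19 after centring. In dye-profile values these were 0.29 and -0.32.

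Of 17 other brakes on the pathway that were measured, 7 were below 0 on either scale, with medians of 0.019 and 0.017. After centring Rasal1, which stimulates Ras to hydrolyse GTP, stood at 0.79 ± 0.19 (limma adjusted p = 0.28, not past the threshold). Rgs14, a scaffold of Ras signalling and G proteins, stood at 0.44 ± 0.19. In dye-profile values these were 0.65 and 0.26.

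Activity-induced transcripts also lay mostly below 0. Of 24 immediate early genes, 16 were below 0 after centring (median -0.19), beside 43.4% of all genes, and their coefficients ran from -1.16 to 0.17. In dye-profile values 19 were below 0 (median -0.32), beside 50.2% of all genes. There 14 were below 0 in 4 of 4 hybridisations, beside 9.5% of all genes. The 2 of smallest p after centring were Nr4a2, an orphan nuclear receptor, at -1.16 ± 0.22 (limma adjusted p = 0.0694), and Nptx2, a secreted synaptic pentraxin, at -0.35 ± 0.17. The dye-profile medians of the list were -0.31, -0.27, -0.15 and -0.38, in the order cocaine in Cy5 replicates 1 and 2 and saline in Cy5 replicates 1 and 2. In that order the medians of the phosphatases were -0.16, -0.25, -0.24 and -0.18. Dusp6, the member of lowest coefficient, stood at -0.59, -0.25, -0.41 and -0.49, while Dusp2 and Dusp7 had values of both signs.

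**Figure D4:**
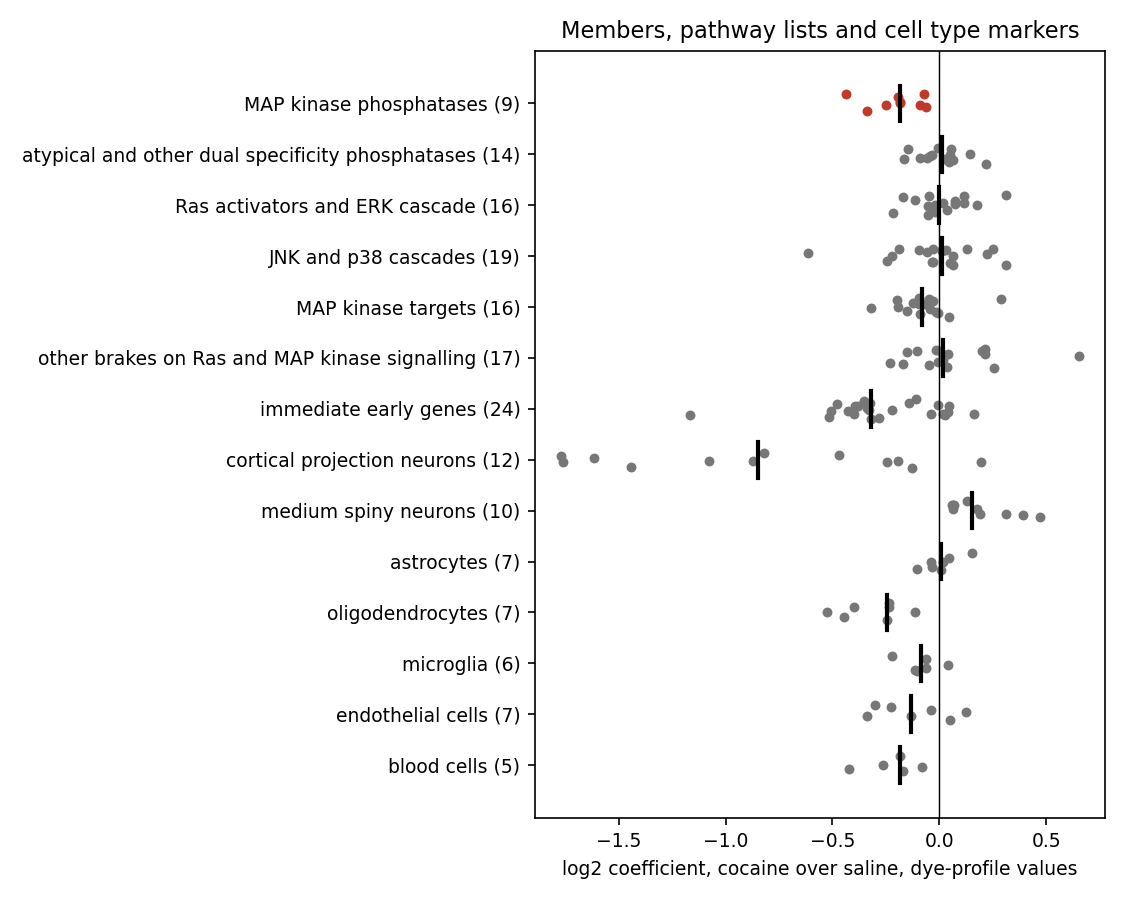
Cocaine coefficients in dye-profile values (log2 of cocaine over saline, x axis) of the phosphatase genes (red) and of the genes of each pathway and cell type marker list (grey), with the number measured in brackets and black bars at the medians. The phosphatases lie between -0.44 and -0.064, immediate early genes have a median of -0.32 and cortical projection neuron markers one of -0.85.

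Markers of other cells moved in the same comparison. In bulk tissue a difference in the cells a sample held, neighbouring tissue included, cannot be told apart from one in RNA per cell. Cortical projection neurons belong to the cortex, not to the accumbens. Of 12 measured markers of cortical projection neurons, 11 were below 0 and 3 fell past the threshold after centring (Tbr1, Nrn1 and Neurod6, limma adjusted p = 0.00602, 0.0143 and 0.0375), and 0 passed in dye-profile values. Their dye-profile medians were -1.22, -0.57, -0.67 and -0.73 in the order used above. Dusp1, Dusp4, Dusp6, Dusp8, Dusp14 and Dusp16 had the same sign in each hybridisation, and Dusp2, Dusp7 and Dusp10 did not. The part of these markers in the phosphatase values was not tested. Oligodendrocyte markers, of which 6 of 7 were below 0 after centring, had dye-profile medians of -0.53 and -0.65 in the replicates numbered 1 and 0.14 and -0.13 in those numbered 2. In that order Dusp7 stood at -0.16, -0.24, 0.069 and 0.074, and Dusp2 at 0.14, 0.090, -0.34 and -0.18. The part of these markers was not tested either. Aspa, at -0.39 ± 0.19, and Mog, at -0.24 ± 0.17, had the smallest p of that list.

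Of 10 markers of medium spiny neurons, 0 were below 0 on either scale (medians 0.33 and 0.15). Ppp1r1b, which encodes DARPP-32, stood at 0.69 ± 0.19 and the adenylyl cyclase gene Adcy5 at 0.61 ± 0.20 after centring. In dye-profile values these were 0.47 and 0.39. Medians in dye-profile values were 0.0081 for astrocytes (Aldh1l1 at 0.33 ± 0.18 and Aldoc at 0.23 ± 0.18 centred), -0.084 for microglia (Trem2 at 0.23 ± 0.17 and Aif1 at 0.052 ± 0.17), -0.13 for endothelial cells (Kdr at -0.30 ± 0.17 and Esam at 0.18 ± 0.17) and -0.18 for blood cells (S100a9 at -0.30 ± 0.17 and Hbb-bt at -0.23 ± 0.21). In dye-profile values Aldh1l1 and Aldoc stood at 0.15 and 0.048, and Trem2 and Aif1 at 0.041 and -0.062. Kdr and Esam stood there at -0.34 and 0.050, and S100a9 and Hbb-bt at -0.26 and -0.42. In these 5 lists and the oligodendrocyte list 0 genes passed.

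Dusp4, Dusp6, Dusp10 and Dusp16 stayed below 0 in every setting tried, while Dusp7 and Dusp8 lay above 0 after centring and below 0 in dye-profile values. The coefficient of Dusp6 ran from -0.54 to -0.050. In centred values it was -0.050 and -0.44 when cocaine in Cy5 replicate 1 or 2 was left out, and -0.39 and -0.10 when saline in Cy5 replicate 1 or 2 was. With 1 hybridisation left out, coefficients lay below 0 for 4 to 8 of the 9 members after centring and for 8 or 9 in dye-profile values. Over all settings the lowest adjusted p of any member was 0.594.

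**Figure D5:**
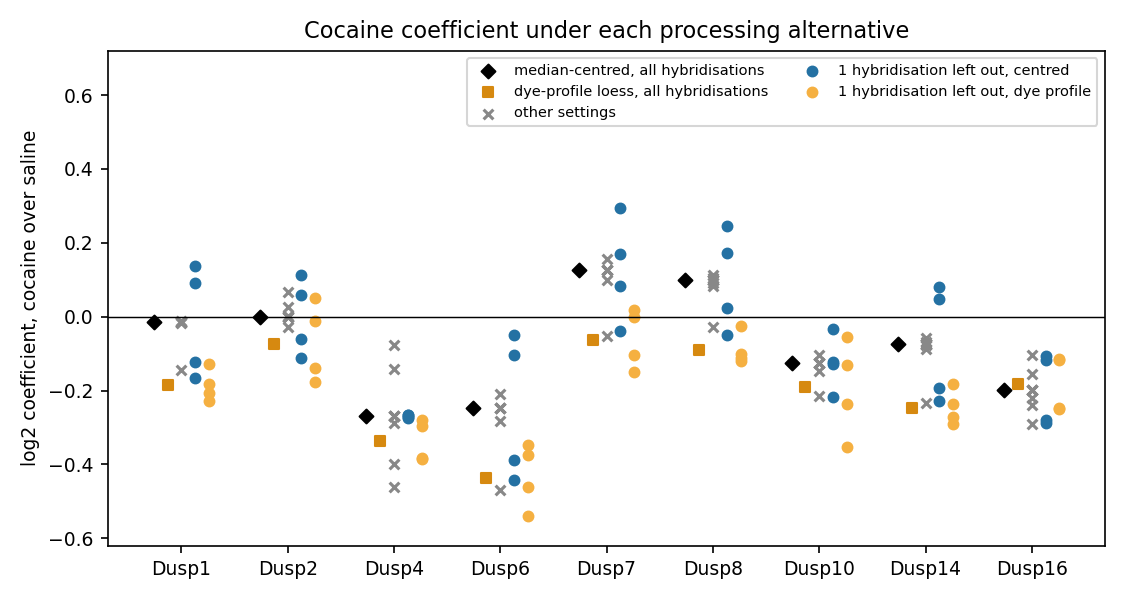
Cocaine coefficient (log2 of cocaine over saline, y axis) of each gene (x axis) under the median centring, the dye-profile correction, either with 1 hybridisation left out, and the other settings. Dusp4, Dusp6, Dusp10 and Dusp16 have every point below 0 and Dusp7 and Dusp8 have points on both sides.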

How the data were processed

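The files are a value table of 8 scans of 4 two-colour hybridisations, and the unit is log2 ratio of the 2 channels as deposited by the authors. Values told the log base, while how background and dyes were handled is not given in the sources used here. Between 4 and 37 rows of 44290 per scan held a stop value beyond 16.6 in size and were set to missing.

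Row order was matched to probe numbers through a grid layout, with which 5786 probe pairs that share an accession had r = 0.495, against -0.008 in file order. The layout was found from these data, and every gene name rests on it. A single symbol was annotated to 32042 rows, several to 47 (left unnamed) and none to 12201. By gene identifier, 31906 matched RefSeq's gene table. Axon minus Agilent differences correlated at 0.514 and 0.517 within a dye orientation and at -0.542 to -0.492 between orientations, as for columns already turned to 1 treatment direction.

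Each scan was centred, probes were averaged per symbol, scans were averaged per hybridisation, and limma 3.58.1 (R 4.3.3) was fitted to all genes with cocaine and dye terms and 2 residual degrees of freedom, two-sided, with Benjamini-Hochberg adjustment over all genes. The code was tested on simulated data. Dye-profile values are loess residuals (span 0.3, 4 iterations) along the mean Cy5 over Cy3 profile of the Agilent scans. The members, lists and alternatives were chosen with earlier results of these data known. Named genes are all members, the 2 of smallest p of each list with any past the threshold, and, chosen after its values were seen, Dusp9. The design text counts 5 measurements, and 4 hybridisations were analysed here. The number of arrays limits the precision.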

Additional observations from a re-analysis of the deposited data

Results flagged for a closer look

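In dye-profile values, saline in Cy5 replicate 1 stood apart for Dusp1, at -0.076 against -0.23 to -0.21 in the other hybridisations, a gap of 0.858 of the range. This was 1 of 18 sets examined, 4 values each, and about 1 in 20 would stand apart by chance.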

How the results depend on the processing

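Of 152 alternatives of member ratios, 129 kept the direction and stayed outside the threshold, 23 turned direction and 0 passed. Dusp7 and Dusp8 were -0.064 and -0.090 under the dye-profile loess and -0.052 and -0.029 with scans scaled to an equal median absolute deviation. Dusp2 was 0.0014 under that scaling, 0.028 in Agilent scans only and 0.067 with values of exactly 0 missing. With 1 hybridisation left out, centred ratios ranged from -0.17 to 0.14 for Dusp1, -0.11 to 0.11 for Dusp2, -0.44 to -0.050 for Dusp6, -0.039 to 0.29 for Dusp7, -0.049 to 0.25 for Dusp8, -0.22 to -0.034 for Dusp10, -0.23 to 0.081 for Dusp14 and -0.29 to -0.11 for Dusp16, with Dusp4 at -0.27 in each, and the family median from -0.12 to 0.081, the highest without saline in Cy5 replicate 2. Left-out fits on dye-profile values, added after seeing the data, ranged from -0.23 to -0.13 for Dusp1, -0.18 to 0.051 for Dusp2, -0.39 to -0.28 for Dusp4, -0.54 to -0.35 for Dusp6, -0.15 to 0.017 for Dusp7, -0.12 to -0.025 for Dusp8, -0.35 to -0.056 for Dusp10, -0.29 to -0.18 for Dusp14, -0.25 to -0.12 for Dusp16 and -0.24 to -0.14 for the family median. On that scale Dusp7 was -0.0018, -0.15 and -0.10 and Dusp8 -0.11, -0.10 and -0.025 without cocaine in Cy5 replicate 1, cocaine in Cy5 replicate 2 and saline in Cy5 replicate 2. The cause was not tested. Single probes, also added after seeing the data, turned no direction.

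By limma, 8 genes, probes without a single symbol included, changed after centring. The count was 0 under the dye-profile loess (2278 at an unadjusted p below 0.05), 0 with scaled scans (1755), 0 in Axon scans only (1585), 0 with no dye coefficient (24), 20 in Agilent scans only, 21 with values of exactly 0 missing and 30 with the median over the probes of a gene. Leaving out a hybridisation gave 66 to 288 genes after centring, 288 and 148 for cocaine in Cy5 replicates 1 and 2 and 91 and 66 for saline in Cy5 replicates 1 and 2, and 0 in each dye-profile fit (1709 to 2570 at an unadjusted p below 0.05). In each centred left-out fit all members had the same standard error, 0.233 or 0.251 by fit. In the main centred fit these differed little, from 0.17 to 0.19, as most of that variance was shared across genes too. The centred left-out fits thus used a variance wholly pooled across genes. Their counts therefore cannot be compared with the 8 genes of the main fit. Each array sets a cocaine mouse against a saline mouse, so every ratio is already a paired value. No further pairing between arrays was used, because the replicate numbers follow sample order only. The 4 hybridisations, 2 residual degrees of freedom and lack of intensities limit the precision.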

Other observations

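By Euclidean distance over the 4 dye-profile values, the named genes most like Dusp4, the member of smallest p after centring, were Nlgn3 (distance 0.097), Nxf1 (0.103) and Atp5e (0.112), of 19086 genes compared. The distance is over 4 values that share a dye profile.

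The dye effect of most members was larger on the Agilent scanner, but that of Dusp16 was -0.23 there and -0.25 on the Axon scanner. The mean difference between dye orientations, divided by 2, was 2.06 on the Agilent scanner and 0.92 on the Axon scanner for Dusp6, 1.89 and 0.70 for Dusp1, and 0.70 and 0.027 for Dusp4 on the log2 scale. In 33 of 36 pairs of scans of a member the centred Agilent value was farther from 0, and the sign was the same on both scanners in 31. In dye-profile values it was the same in 32.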
